A study of Mus musculus with 12 samples.

Results

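The 10 genes described here mark or control regulatory T cells, the CD4 T cells that hold immune responses in check. They were followed through total RNA and heavy polysome RNA of mouse CD4+ T cells: FOXP3, IKZF2, IKZF4, IL2RA, IL2RB, CTLA4, TNFRSF18, TNFRSF4, NRP1 and ITGAE. These 10 were taken by name from the 26485 gene rows of the deposited count table, and all 10 had a row. Symbols in that table are written in the human style. The 4 transcripts IL2RA, TNFRSF18, TNFRSF4 and ITGAE lay near the count floor and are described by their reads, while 6 genes held enough reads to pass the filter of the main test.

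The 12 libraries came from C57BL/6 mice, with no age or genotype in the labels. By the labels, the mice were immunised with AOV alum and then took, by mouth each day for 7 days, either vehicle or 25 mg/kg of 4EGI-1, an inhibitor of the cap-binding translation factor eIF4E. CD4+ CD45+ cells were sorted, and polyadenylated RNA was read as total mRNA (input) and from the heavy fractions of a sucrose gradient (heavy), where transcripts that carry many ribosomes sediment. The 4 groups of 3 libraries were 4E input, OA input, 4E heavy and OA heavy. The labels do not spell out 4E or OA; here OA is taken for vehicle and 4E for 4EGI-1. Whether replicates are separate mice is not stated, so the p-values cover the spread among these libraries, some or all of which may be technical. One 4E heavy library, replicate 3, has the word ReSubmission in its label.

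Regulatory T cells depend on FOXP3, a forkhead transcription factor that works with partners such as the Ikaros family proteins Helios (IKZF2) and Eos (IKZF4). They need interleukin 2, which they bind through a receptor whose alpha chain (IL2RA, CD25) gives high affinity and whose beta chain (IL2RB) carries the signal to STAT5. They restrain other cells partly through CTLA4, which takes CD80 and CD86 away from the costimulatory receptor CD28, and they carry the tumour necrosis factor receptors GITR (TNFRSF18) and OX40 (TNFRSF4). Several of these genes are also used elsewhere: CTLA4, IL2RA and OX40 rise on activated conventional and follicular helper T cells, IL2RB marks memory and natural killer cells, NRP1 endothelial and dendritic cells, and ITGAE dendritic cells and T cells of epithelia. In bulk RNA of this kind, fewer regulatory T cells and less RNA per cell cannot be told apart.

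Because eIF4E binds the cap at the first transcribed base, the bases around the annotated start are shown for those tested members that the RefSeq promoter table (GRCm38.p6) holds. In each sequence the 15 bases before the start are in lower case and the first 15 transcribed bases in capitals. All are on the plus strand of the mouse genome, and FOXP3 has 2 annotated starts.
CTLA4, chr1:60909010-60909039: tgtcctgtgtgtgcaCTACACATATGTAGC
NRP1, chr8:128359058-128359087: tctcccgctcatcttTTCATTGCTCTCTCT
FOXP3, first start, chrX:7579661-7579690: ttttgataatgtggcAGTTTCCCACAAGCC
FOXP3, second start, chrX:7580468-7580497: aaggactatatgactGTGAGCAGAATCCAT
None of the 7 annotated starts of the 6 members in that table begins with a 5′ terminal oligopyrimidine motif, taken here as C followed by at least 4 pyrimidines on the transcribed strand. Of all 32851 annotated starts in the table, 2.51% do. The starts used in these cells were not measured. IKZF2, IKZF4, IL2RB and ITGAE had no entry.

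The libraries held between 691449 and 1906657 gene reads. Small noncoding RNAs took 75.1% to 78.3% of them in 4E input and 33.6% to 74.9% in OA input, against 10.6% to 16.9% in 4E heavy and 3.14% to 12.03% in OA heavy. Most gene reads of 4E input were thus not mRNA, although the RNA is given as polyadenylated. Levels are therefore given as counts per 1000000 gene reads after TMM scaling (CPM), which corrects for such composition. Levels scaled in this way are relative to the bulk of genes in a library. A change that most genes share, in input or in heavy polysomes, would not show in them. OA replicate 1 stood apart, with the largest number of reads in both fractions and the lowest small noncoding share of its group, and values that moved without it are given beside the results. A floor of 3 counts, the most that a count of 0 allows, equals 6.46 to 6.77 CPM in 4E input, 1.18 to 5.07 CPM in OA input, 1.85 to 2.66 CPM in 4E heavy and 0.774 to 1.92 CPM in OA heavy; it covers counting error only. Each of 10 T cell markers held reads in at least 1 library, most of them in PTPRC (8791) and LCK (5355), and their summed level was 698 to 967 CPM in 4E input, 798 to 1267 CPM in OA input, 908 to 1109 CPM in 4E heavy and 798 to 1276 CPM in OA heavy. CD4 itself, the marker of the sort, held 100 reads in all: 0 in 4E input, 29 in OA input, 19 in 4E heavy and 52 in OA heavy. Its level was 4.27 ± 4.67 CPM in 4E heavy and 5.30 ± 5.50 CPM in OA heavy (SD, n = 3 each). In 4E input a count of 0 allows up to 6.46 to 6.77 CPM in 1 library, and 0 reads in all 3 allow less for the group. OA input averaged 5.53 ± 5.02 CPM, from 0 to 9.82 CPM. The log2 change of CD4 in input, 4E minus OA, was -6.14 by edgeR (SE 2.82, unadjusted p = 0.0437, adjusted p = 0.467).

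The transcription factors gave most of the reads. FOXP3 had 21 or more reads in every library, 738 in all. Its level was 56.0, 78.9 and 61.3 CPM in 4E input replicates 1, 2 and 3, against 42.0, 61.2 and 35.5 CPM in the OA input replicates. In heavy polysomes it was 50.6, 41.3 and 29.3 CPM in 4E and 46.5, 33.9 and 38.3 CPM in OA. The arms overlapped in both fractions. The highest of the 12 values belonged to 4E input. Next came 61.28 CPM in 4E input replicate 3 and 61.24 CPM in OA input replicate 2, which were all but equal. In the mouse annotation FOXP3 overlaps Ppp1r3f and Ccdc22 on the opposite strand and the noncoding Flicr on its own strand. No label or header gives the counting rule, so some reads could belong to those neighbours.

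IKZF2, the most read member with 2675 reads or 42.6% of the reads of all 10 genes, measured 134, 140 and 155 CPM in the 4E input replicates, against 205, 140 and 159 CPM in OA input. In heavy polysomes it stood at 123, 113 and 97.7 CPM in 4E, against 220, 130 and 126 CPM in OA. The heavy groups did not overlap, though the highest 4E value and the lowest OA value were close, and the distance between the group means came mostly from OA heavy replicate 1. IKZF4, a partner through which FOXP3 silences genes, was read far less, with 344 reads. It measured 15.1, 15.8 and 10.9 CPM in 4E input from 7, 7 and 5 reads, against 23.2, 19.3 and 22.0 CPM in OA input from 59, 12 and 13 reads. In heavy polysomes it stood at 14.2, 3.70 and 10.7 CPM in 4E, against 35.9, 22.2 and 13.4 CPM in OA. The input groups of IKZF4 did not overlap, and in heavy polysomes the highest 4E library lay just above the lowest OA library.

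Of the interleukin 2 receptor chains, IL2RB held 694 reads and IL2RA 14. IL2RB measured 43.1, 42.9 and 65.7 CPM in 4E input, against 42.8, 29.01 and 50.7 CPM in OA input. In heavy polysomes it had 26.5, 42.5 and 41.7 CPM in 4E, against 40.3, 56.2 and 33.2 CPM in OA. These ranges overlapped in both fractions. IL2RA, the chain by which regulatory T cells are often sorted, had 0, 0 and 2 reads in 4E input and 0 in each OA input library, 8, 0 and 0 reads in 4E heavy and 4, 0 and 0 in OA heavy. It was at 0 in 9 of 12 libraries, and 12 of its 14 reads came from the heavy libraries of replicate 1 of both arms.

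CTLA4, the inhibitory receptor, held 865 reads. It measured 58.2, 42.9 and 32.8 CPM in 4E input, against 73.4, 37.1 and 38.9 CPM in OA input, and these ranges overlapped. In heavy polysomes it stood at 40.1, 18.5 and 23.1 CPM in 4E, against 75.6, 33.9 and 61.3 CPM in OA. In the mouse annotation CTLA4 overlaps the processed pseudogene Rpl18-ps1 on the same strand. Of the 4E heavy libraries only replicate 1 reached above the lowest OA heavy library. TNFRSF18 had 1, 0 and 0 reads in 4E input, 9, 0 and 0 in OA input, 11, 0 and 5 in 4E heavy and 10, 2 and 0 in OA heavy. TNFRSF4 had 0, 1 and 4 reads in 4E input, 2, 1 and 2 in OA input, 3, 1 and 0 in 4E heavy and 4, 3 and 3 in OA heavy. Most of these values are at or under the floor of 3 counts, in 8 of 12 libraries for TNFRSF18 and in 10 of 12 for TNFRSF4.

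NRP1, a coreceptor for semaphorins and vascular growth factor that marks regulatory T cells of thymic origin, held 855 reads. It measured 28.004, 51.9 and 52.5 CPM in 4E input, against 59.7, 4.83 and 42.3 CPM in OA input. The value of 4.83 CPM in OA input replicate 2 rests on 3 reads, the floor of that library, and is the lowest NRP1 level of the 12. In heavy polysomes NRP1 had 33.3, 48.7 and 40.8 CPM in 4E, against 68.4, 52.8 and 48.5 CPM in OA, and the highest 4E value barely exceeded the lowest OA value. ITGAE, the integrin chain that binds E-cadherin on epithelia, had 0, 3 and 3 reads in 4E input, 7, 2 and 3 in OA input, 5, 0 and 4 in 4E heavy and 8, 3 and 1 in OA heavy. It was at or under the floor in 8 of 12 libraries.

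**Figure D1:**
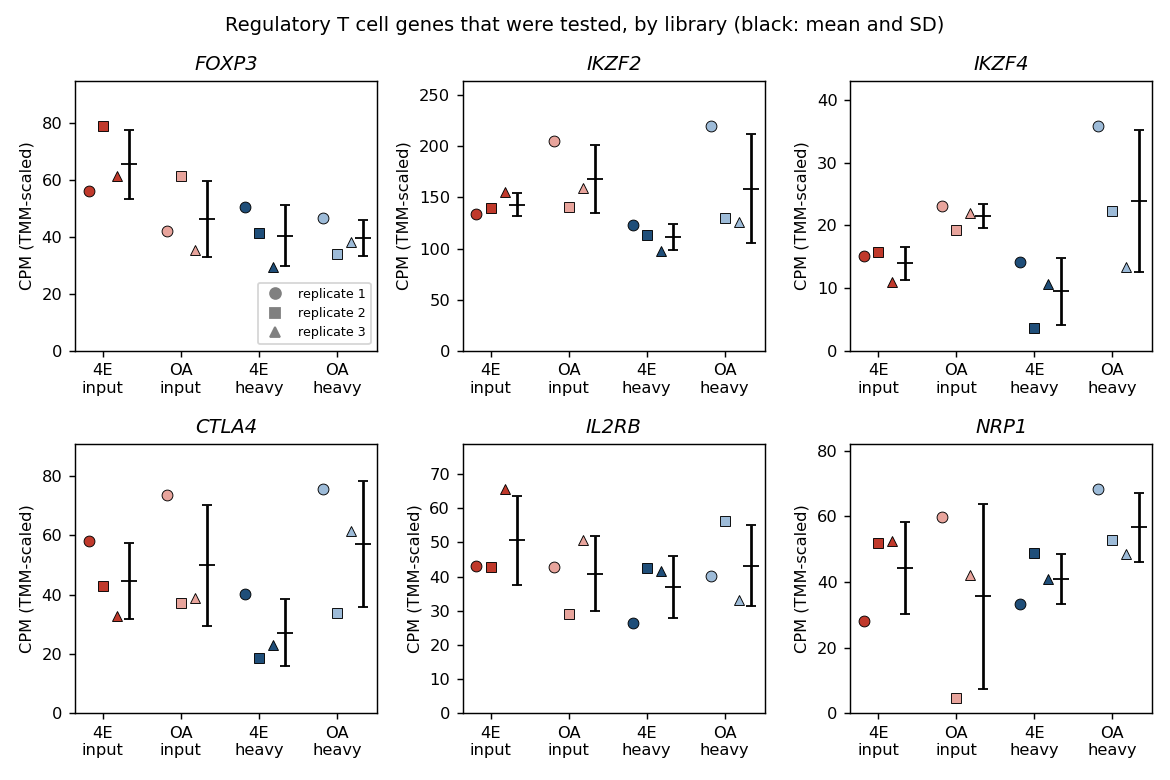
Level of each tested regulatory T cell gene in CPM after TMM scaling (y axis, from 0) in the 4E input, OA input, 4E heavy and OA heavy libraries (x axis). Symbols are replicates and black marks the mean and SD of 3 libraries. CTLA4, IKZF2 and IKZF4 lie lower in 4E heavy than in OA heavy in mean. OA heavy replicate 1 is the highest library for IKZF2, CTLA4, IKZF4 and NRP1.

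**Figure D2:**
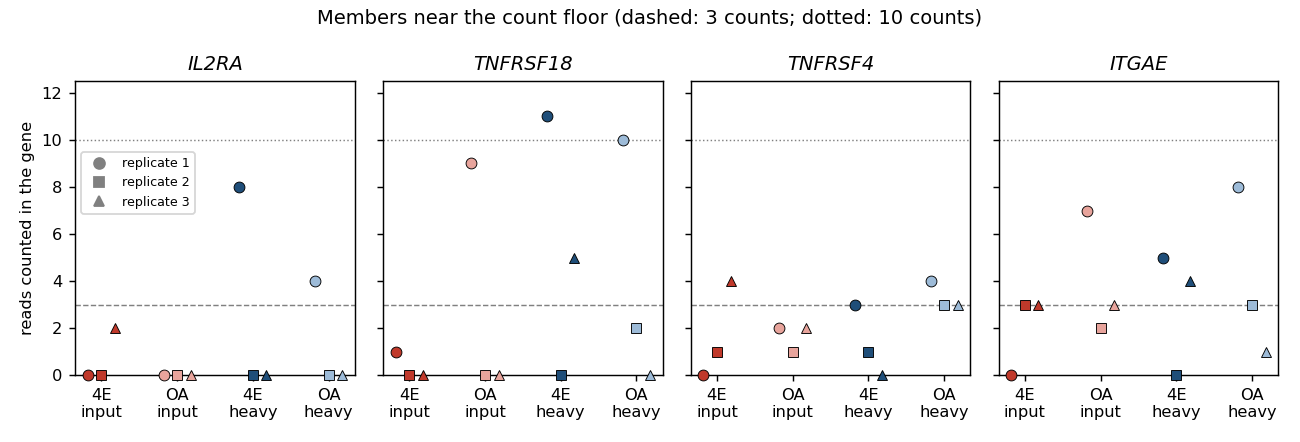
Reads counted (y axis) in IL2RA, TNFRSF18, TNFRSF4 and ITGAE in the 4E input, OA input, 4E heavy and OA heavy libraries (x axis); symbols are replicates. The dashed line marks the floor of 3 counts and the dotted line the 10 counts that the filter asks for in 3 libraries; only TNFRSF18 reaches it, in 2 libraries.

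Summed over the 10 genes, reads per 100000 gene reads outside small noncoding RNA numbered 58.8, 53.0 and 49.3 in the 4E heavy replicates, against 103, 69.4 and 65.2 in OA heavy. In input they numbered 62.3, 72.1 and 76.2 in 4E, against 91.8, 56.7 and 69.1 in OA. This measure removes small noncoding RNA from the total but takes no account of other differences in composition. The heavy libraries of the 2 arms did not overlap, with or without OA heavy replicate 1, the highest of them, and the input libraries did overlap. Without IKZF2, which dominates the sum, the heavy values were 30.1 to 35.02 in 4E and 39.8 to 57.3 in OA, without overlap. The input values without it were 37.6 to 46.5 in 4E and 29.9 to 50.2 in OA. Both sums hold the reads of the other members, so they are not separate evidence. Of all single genes tested, 8.12% were lower in 4E heavy without overlap, by their levels after TMM scaling. No such share was taken for sums of genes.

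**Figure D3:**
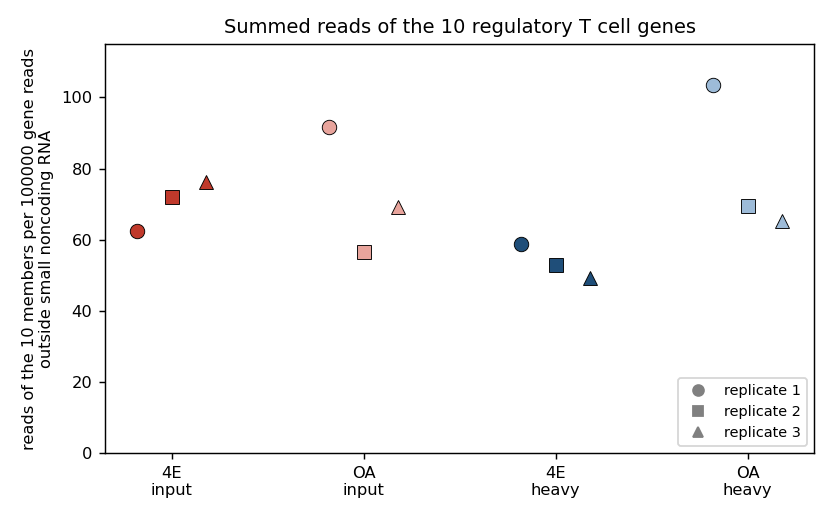
Reads of the 10 regulatory T cell genes together per 100000 gene reads outside small noncoding RNA (y axis, from 0) in each library of the 4E input, OA input, 4E heavy and OA heavy groups (x axis); symbols are replicates. The 3 4E heavy libraries, at 49.3 to 58.8, lie below the OA heavy libraries, at 65.2 to 103, and the input groups overlap.

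Differences were tested with edgeR's quasi-likelihood test over the 7465 genes that reached 10 counts in 3 or more libraries, and p-values were adjusted over all of them by the Benjamini-Hochberg method with a threshold of 0.05. The 6 members that passed this filter had 10 or more counts in 12 libraries each, except NRP1 with 11 and IKZF4 with 8. In none of the 5 comparisons did a member pass. DESeq2 passed 0 members as well. With no filter the other 4 members did not pass either.

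The first comparison asked whether the arms differed in the total mRNA of these genes. In input, 0 of the 6 tested members passed and 0 had an unadjusted p under 0.05, where over all genes 0% passed and 10.5% had such a p. Of the 6, 3 had a log2 change below 0, against 52.9% of all genes, and their median was -0.0043, against -0.05 over all genes. FOXP3 averaged 65.4 ± 12.01 CPM in 4E and 46.3 ± 13.4 CPM in OA (SD, n = 3 each), with a log2 change of 0.51 (95% interval -0.15 to 1.16, adjusted p = 0.585). IKZF4 averaged 13.9 ± 2.62 CPM in 4E and 21.5 ± 1.96 CPM in OA, with a log2 change of -0.64 (-1.77 to 0.50, adjusted p = 0.690). It was the only member whose input groups did not overlap, and 7.41% of all tested genes were lower in 4E in that sense. CTLA4 had a log2 change of -0.22 (-1.06 to 0.63), IKZF2 -0.25 (-0.77 to 0.28), IL2RB 0.30 (-0.41 to 1.015) and NRP1 0.21 (-0.82 to 1.24). These estimates depended on single libraries. Without OA input replicate 1, CTLA4 was 0.22, IKZF2 -0.08 and NRP1 0.91. Without OA input replicate 2, NRP1 was -0.24, IL2RB 0.13 and CTLA4 -0.38. CTLA4 was -0.36 without OA input replicate 3. Without 4E input replicate 1 CTLA4 was -0.45 and NRP1 0.45. Without 4E input replicate 2 NRP1 was 0.076, and without 4E input replicate 3 it was 0.062, IL2RB 0.068 and CTLA4 -0.036. Without composition scaling FOXP3, IL2RB and NRP1 in input also lay below 0, where the median of all genes was -0.92, and stood above that median by 0.61, 0.33 and 0.02. Stromal and endothelial markers summed to 36.1 to 56.0 CPM in 4E input and 67.6 to 561 CPM in OA input. Of the 9 tested T cell markers 7 were lower in 4E input (median -0.31), and 0 passed. The part of these markers in the values of the members was not tested.

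The same question for heavy polysomes gave lower values in 4E for most members, with none past the threshold. Of the 6, 0 passed, against 0% of all genes, and 3 had an unadjusted p under 0.05 and were lower in 4E, where 4.39% of all genes were and 8.20% had such a p in either direction. CTLA4 averaged 27.2 ± 11.4 CPM in 4E and 57.0 ± 21.2 CPM in OA (SD, n = 3 each), with a log2 change of -1.07 (SE 0.37, 95% interval -1.84 to -0.29, adjusted p = 0.569), or 0.478 of the OA level. IKZF4 averaged 9.51 ± 5.34 CPM in 4E and 23.8 ± 11.3 CPM in OA, with a log2 change of -1.35 (SE 0.47, -2.34 to -0.36, adjusted p = 0.569). IKZF2 averaged 111 ± 12.9 CPM in 4E and 159 ± 53.1 CPM in OA, with a log2 change of -0.52 (SE 0.24, -1.02 to -0.02, adjusted p = 0.592). By unadjusted p CTLA4 was number 106 and IKZF4 number 111 of the 7465 genes. FOXP3 averaged 40.4 ± 10.7 CPM in 4E and 39.6 ± 6.37 CPM in OA, with a log2 change of 0.03 (-0.57 to 0.63), a sign that turned in 6 of 21 alternatives; it was -0.16 without 4E heavy replicate 1 and 0.21 without 4E heavy replicate 3. NRP1 had a log2 change of -0.47 (-1.39 to 0.44) and IL2RB one of -0.23 (-0.88 to 0.42).

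In heavy polysomes 5 of the 6 tested members lay below 0, against 50.2% of all genes, with a median log2 change of -0.49, where that of all genes was -0.0026. IKZF2 was the only member whose groups did not overlap, as 8.12% of all genes were lower in 4E. These values leaned on OA heavy replicate 1. Without it the median was -0.30 and IKZF2 stood at -0.20, IKZF4 at -0.91, CTLA4 at -0.79 and NRP1 at -0.31. With OA replicate 1 left out of both fractions, only CTLA4 kept an unadjusted p under 0.05. In edgeR's test that p was 0.0268 for CTLA4, 0.0965 for IKZF4 and 0.287 for IKZF2. IL2RB ranged from -0.38 without OA heavy replicate 3 to -0.0041 without OA heavy replicate 2, and was -0.036 without 4E heavy replicate 1 and -0.35 without 4E heavy replicate 2. Without 4E heavy replicate 2 CTLA4 stood at -0.84 and IKZF4 at -0.95, and without 4E heavy replicate 1 at -1.47 and -1.80. Markers of myeloid and stromal cells were lower in sum in 4E heavy, though none of those tested passed. The summed level of 7 myeloid markers, 6 of them with reads, was 13.0 to 27.5 CPM in 4E heavy and 39.5 to 82.3 CPM in OA heavy, with S100A8 at 0 in all libraries. That of 7 stromal and endothelial markers, all with reads, was 23.4 to 41.7 CPM in 4E heavy and 58.3 to 502 CPM in OA heavy. In that list the endothelial CDH5 and KDR held only 2 and 4 reads in the 12 libraries. Of the 3 myeloid markers tested 3 had estimates below 0, and of the 4 stromal and endothelial markers 3 had. The smallest adjusted p in edgeR's test was 0.182, for MPO (log2 change -4.13) and for COL3A1 (-4.64). Whether these cells had a part in the values of the members was not tested. Summed T cell markers overlapped between the arms (908 to 1109 CPM in 4E heavy and 798 to 1276 CPM in OA heavy). In mean, PTPRC gave 439 of 988 CPM in 4E heavy and 488 of 968 CPM in OA heavy. PTPRC encodes CD45, which is not particular to T cells, so the sum does not measure T cells alone. Of the 9 tested T cell markers 5 were lower and 4 higher in 4E heavy (median -0.16). The sums of 6 B cell markers also overlapped (40.7 to 125 CPM in 4E heavy and 39.2 to 111 CPM in OA heavy). The dendritic cell markers, with reads for 3 of 6 and XCR1 and CLEC9A at 0, summed to 3.70 to 11.5 CPM in 4E heavy and 4.13 to 10.9 CPM in OA heavy. The natural killer and CD8 T cell markers, with reads for 3 of 6 and KLRD1, NCR1 and CD8B at 0, summed to 2.47 to 4.44 CPM in 4E heavy and 0 to 2.06 CPM in OA heavy.

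**Figure D4:**
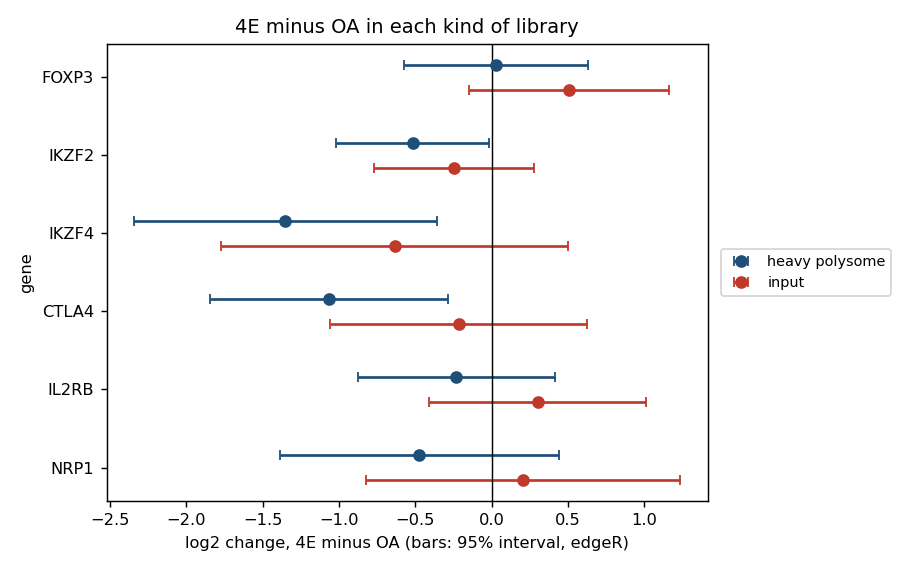
Log2 change of each tested regulatory T cell gene, 4E minus OA (x axis), in heavy polysomes (blue) and input (red); points are edgeR estimates and bars their 95% intervals. In heavy polysomes the intervals of CTLA4, IKZF4 and IKZF2 lie below 0 before adjustment for the 7465 genes tested, and in input each interval spans 0. Without OA replicate 1 in both fractions, only CTLA4 kept an unadjusted edgeR p under 0.05 in heavy polysomes (0.0268).

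The authors' deposited table gave the same comparison from their own fit. In the authors' deposited table CTLA4 and IKZF4 are classed as regulated in translation alone, as are 667 of its 11228 entries (5.94%), and the other 8 members are classed as none. The heavy log2 fold change in the authors' deposited table is -1.08 for CTLA4 (p = 0.0394, adjusted p = 0.620) and -1.39 for IKZF4 (p = 0.0200, adjusted p = 0.534). For transcription the authors' deposited table lists -0.16 for CTLA4 and -0.62 for IKZF4, with p = 0.734 and 0.249. The columns of that table name the first arm OAE.

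Polysome association was then read as heavy minus input within each arm. In 4E, 6 of the 6 tested members had estimates below 0, as 46.0% of all genes did, and the median log2 change was -0.51, against 0.04 over all genes. None passed, against 0.938% of all genes, and 1 had an unadjusted p under 0.05 and was lower, where 2.49% of all genes were and 5.59% had such a p in either direction. That gene was FOXP3, with 40.4 ± 10.7 CPM in 4E heavy and 65.4 ± 12.01 CPM in 4E input (SD, n = 3 each) and a log2 change of -0.68 (SE 0.31, 95% interval -1.33 to -0.04, adjusted p = 0.851). Each 4E heavy library lay below each 4E input library for FOXP3, IKZF2 and IL2RB, as for 5.79% of all genes. For IL2RB the groups all but met, at 42.5 CPM in 4E heavy replicate 2 and 42.9 CPM, from 19 reads, in 4E input replicate 2. CTLA4 had a log2 change of -0.71 (-1.56 to 0.15), IKZF4 -0.55 (-1.73 to 0.62), IL2RB -0.46 (-1.16 to 0.24), IKZF2 -0.36 (-0.88 to 0.17) and NRP1 -0.11 (-1.12 to 0.91). Single libraries moved all of these but FOXP3 and IKZF2 by over 1.5 times. CTLA4 was -1.11 without 4E heavy replicate 1 and -0.47 without 4E input replicate 1. IKZF4 was -1.01 without 4E heavy replicate 1 and -0.15 without 4E heavy replicate 2. IL2RB was -0.26 without 4E heavy replicate 1 and -0.22 without 4E input replicate 3. NRP1 ranged from -0.35 without 4E input replicate 1 to 0.040 without 4E input replicate 3, and was 0.026 without either 4E input replicate 2 or 4E heavy replicate 1 and -0.25 without 4E heavy replicate 2. In the same comparison 3 of the 3 tested myeloid markers had estimates below 0 (median -0.38) and 8 of the 9 tested T cell markers above 0 (median 0.34), while stromal and endothelial markers were divided, with 2 of 4 below 0 (median -0.05). Between the arms, 7 of those 9 T cell markers were lower in 4E input than in OA input (median -0.31). No marker of these lists passed, and their part in the values of the members was not tested.

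In OA, heavy minus input gave 2 of the 6 below 0, against 49.3% of all genes, with a median of 0.11, against 0.0061 over all genes. None passed, against 0.683% of all genes, and 0 had an unadjusted p under 0.05, where 2.17% of all genes did. No member's groups were apart, as those of 7.54% of all genes were. NRP1 averaged 56.6 ± 10.5 CPM in OA heavy and 35.6 ± 28.03 CPM in OA input (SD, n = 3 each), with a log2 change of 0.57 (-0.36 to 1.51, adjusted p = 0.99998). Leaving out OA input replicate 1 gave 1.28, and leaving out replicate 2 of that group gave 0.13. FOXP3 had a log2 change of -0.21 (-0.82 to 0.41), IKZF2 -0.09, IL2RB 0.08, CTLA4 0.14 and IKZF4 0.16. Each of these 5 turned sign when 1 library was left out. In this arm heavy and input libraries of the same number correlated at 0.67, 0.14 and 0.31 in their deviations from the group means. Some unlike numbers also correlated above 0.1, at 0.16 for heavy 2 with input 3 and at 0.23 for heavy 3 with input 2. With the replicate number as a block 90 genes passed, where 51 did without it, and still 0 members, NRP1 having a log2 change of 0.72 (edgeR adjusted p = 0.468).

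The direction of heavy minus input depends on the scaling. Without composition scaling the median of all genes shifted by 1.92 on the log2 scale in 4E and by 1.23 in OA, and 4 members in 4E (FOXP3, IKZF2, IL2RB and NRP1) and 2 in OA (IL2RB and NRP1) passed as higher in heavy, where 6016 and 3007 of all 7465 genes passed. Relative to the median of all genes under that setting, the 6 members stood at -0.71 for FOXP3, -0.74 for CTLA4, -0.39 for IKZF2, -0.60 for IKZF4, -0.50 for IL2RB and -0.14 for NRP1 in 4E, so each was again below that median.

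The interaction, which is the 4E minus OA change in heavy beyond that in input, tests the difference between those 2 comparisons directly. It was below 0 for 6 of the 6 tested members, against 45.8% of all genes, and the median was -0.61, where that of all genes was 0.05. None passed (0% of all genes did), and 0 had an unadjusted p under 0.05, where 2.14% of all genes did. CTLA4 stood at -0.85 (SE 0.55, 95% interval -1.997 to 0.30, adjusted p = 0.999), IKZF4 at -0.72 (-2.23 to 0.80) and NRP1 at -0.68 (-2.06 to 0.70). IL2RB stood at -0.53 (-1.49 to 0.43), FOXP3 at -0.48 (-1.37 to 0.41) and IKZF2 at -0.27 (-0.99 to 0.46). Without composition scaling the median of all genes stood at 0.73 and that of the members at 0.17, with 4 of the 6 above 0 and 6 of the 6 below the median of all genes. Single libraries also moved these estimates. Without OA input replicate 1, CTLA4 stood at -1.29, NRP1 at -1.39 and IKZF2 at -0.45, and without OA input replicate 2, NRP1 stood at -0.23 and IKZF2 at -0.16. Without OA heavy replicate 1, IKZF4 stood at -0.28 and IKZF2 at 0.051. IL2RB was -0.31 without OA heavy replicate 2, and IKZF2 was -0.41 without OA heavy replicate 3. Leaving out 4E heavy replicate 1 gave -1.17 for IKZF4 and -0.34 for IL2RB, leaving out 4E heavy replicate 2 gave -0.31 for IKZF4, and leaving out 4E heavy replicate 3 gave -0.30 for FOXP3. IL2RB was -0.30 without 4E input replicate 3. With OA replicate 1 left out of both fractions, NRP1 was -1.23, IKZF4 -0.35, FOXP3 -0.25 and IKZF2 -0.13. Here too 3 of the 3 tested myeloid markers had estimates below 0 (median -0.81), as did 3 of the 4 stromal and endothelial markers (median -0.25). Of the 9 tested T cell markers 8 were above 0 (median 0.37). Between the arms, 7 of those 9 were lower in 4E input (median -0.31) and 5 of the 9 in 4E heavy (median -0.16). None of these markers passed. SPI1, a myeloid transcription factor, stood at -2.69 (unadjusted p = 0.0416, edgeR adjusted p = 0.999). Their part in the values of the members was not tested. The 5 comparisons share libraries, so these signs are not separate evidence. The interaction estimates of FOXP3 (-0.48) and CTLA4 (-0.85), whose intervals span 0, came from different parts. The log2 change of 4E minus OA was 0.03 in heavy and 0.51 in input for FOXP3, and -1.07 in heavy and -0.22 in input for CTLA4.

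**Figure D5:**
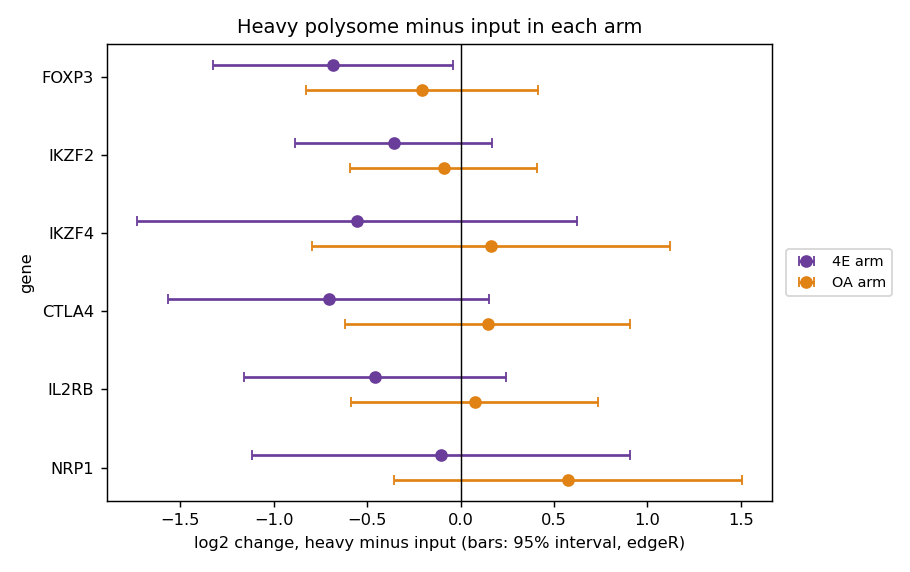
Log2 change of each tested regulatory T cell gene, heavy polysome minus input (x axis), in the 4E arm (purple) and the OA arm (orange); points are edgeR estimates and bars their 95% intervals. The 6 estimates in 4E lie at -0.71 to -0.11 and those in OA at -0.21 to 0.57, and the intervals of the 2 arms overlap for each gene.

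Among the 6 tested members, patterns over the 12 libraries differed. The mean absolute difference of centred log2 CPM was smallest between IKZF2 and IKZF4 (0.33) and between CTLA4 and IKZF2 (0.34), and largest between FOXP3 and NRP1 (0.76). Outside the list, the genes whose 12 values were nearest to those of IKZF2 were RPS9, a ribosomal protein, at 0.110, ARFGEF1, an exchange factor of vesicle transport, at 0.113, and IVNS1ABP at 0.122, where the median over all genes was 0.504. Nearest to CTLA4 were the Mediator subunit MED17 at 0.210, the condensin subunit SMC4 at 0.217 and DERL2, of endoplasmic reticulum protein disposal, at 0.226, where the median was 0.643.

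Other genes of the same biology were read from lists chosen by name. Over all genes, 50.2% had a log2 change below 0 in heavy (median -0.0026) and 52.9% in input (median -0.05), and 0% passed in either. Of 23 other surface and effector genes of regulatory T cells 11 could be tested, and 0 passed in any of the 5 comparisons. The other 12 were under the filter, and TNFRSF9 and EBI3, listed among them, had 0 reads. In heavy polysomes 10 of the 11 were lower in 4E, with a median log2 change of -0.26. For 0 of the 11 were the heavy groups apart with 4E lower, as 8.12% of all genes were. The 1 gene whose heavy groups did not overlap was LRRC32, and it was higher in 4E. It had 10.5 to 17.9 CPM in 4E heavy and 8.90 to 10.3 CPM in OA heavy (log2 change 0.47, SE 0.53, edgeR adjusted p = 0.805). CAPG, an actin-capping protein, averaged 16.4 ± 6.89 CPM in 4E heavy and 33.7 ± 17.4 CPM in OA heavy (SD, n = 3 each; log2 change -1.08, SE 0.48, adjusted p = 0.576). In input 7 of the 11 were lower (median -0.24). NT5E, the ectoenzyme CD73 that makes adenosine, averaged 7.32 ± 1.13 CPM in 4E input and 21.7 ± 5.50 CPM in OA input (log2 change -1.59, SE 0.51, adjusted p = 0.354). It was the 1 gene of the 11 whose input groups did not overlap with 4E lower, as 7.41% of all genes were. The cytokine gene IL10 averaged 1.48 ± 1.28 CPM in 4E input and 4.39 ± 4.08 CPM in OA input, from 2 and 18 reads. Its log2 change in input was -1.58 (SE 1.33, edgeR adjusted p = 0.686). In heavy polysomes IL10 averaged 3.72 ± 2.25 CPM in 4E and 4.13 ± 3.04 CPM in OA.

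All 32 genes of the list of FOXP3 partners and other transcription factors of regulatory T cells were tested, and 0 passed in any comparison. They were divided, with 13 lower and 19 higher in 4E heavy (median 0.13) and 15 lower and 17 higher in 4E input (median 0.10). LEF1, a factor of naive T cells, averaged 363 ± 15.5 CPM in 4E heavy and 256 ± 17.3 CPM in OA heavy (log2 change 0.50, SE 0.17, adjusted p = 0.569), and 435 ± 23.2 CPM in 4E input and 287 ± 6.19 CPM in OA input (0.60, SE 0.18, adjusted p = 0.354). EZH2, the Polycomb methyltransferase, averaged 17.7 ± 5.02 CPM in 4E heavy and 37.7 ± 19.1 CPM in OA heavy (-1.10, SE 0.37). SMAD3, which carries the TGF-beta signal, had log2 changes of 0.74 in heavy (SE 0.29) and 0.72 in input (SE 0.31). TET2, a DNA demethylase, averaged 5.88 ± 1.36 CPM in 4E input and 26.3 ± 22.1 CPM in OA input, from 8 and 82 reads (log2 change -2.11, SE 0.67, adjusted p = 0.354).

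Below the interleukin 2 receptor, 17 of 19 genes were tested and 0 passed, with 10 higher and 7 lower in 4E in both fractions. The interleukin gene IL2 and the receptor gene IL15RA had 0 reads. STAT5A averaged 169 ± 26.6 CPM in 4E input and 98.1 ± 30.6 CPM in OA input (log2 change 0.81, SE 0.26, adjusted p = 0.354). STAT5B averaged 229 ± 27.1 CPM in 4E heavy and 146 ± 51.1 CPM in OA heavy (0.66, SE 0.27, adjusted p = 0.569), and SOCS3, a feedback inhibitor of cytokine signals, 195 ± 23.1 CPM in 4E heavy and 137 ± 6.60 CPM in OA heavy (0.50, SE 0.24). PIK3R1, a regulatory subunit of phosphoinositide kinase, had log2 changes of 0.51 in heavy (SE 0.20) and 0.42 in input (SE 0.21). IL7R, the receptor of interleukin 7, averaged 4.35 ± 3.69 CPM in 4E input and 14.6 ± 7.81 CPM in OA input, from 6 and 70 reads (log2 change -1.80, SE 0.94, adjusted p = 0.524).

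Of 21 ligands and partners of CTLA4, TNFRSF4, TNFRSF18, NRP1 and ITGAE 15 were tested and 0 passed. In heavy polysomes 5 were lower and 10 higher in 4E (median 0.23), and in input 8 were lower and 7 higher (median -0.09). CD28, which competes with CTLA4 for the same ligands, averaged 13.8 ± 3.70 CPM in 4E heavy and 25.1 ± 13.5 CPM in OA heavy (log2 change -0.87, SE 0.44, adjusted p = 0.613), and 10.9 ± 3.62 CPM in 4E input and 24.4 ± 10.9 CPM in OA input (-1.22, SE 0.54, adjusted p = 0.439). VEGFA, a ligand of NRP1, averaged 55.2 ± 14.5 CPM in 4E heavy and 29.6 ± 8.53 CPM in OA heavy (0.91, SE 0.34, adjusted p = 0.569), with a log2 change of 0.90 in input (SE 0.38). The NF-kappaB genes NFKB2 in heavy and RELA in input both had one of 0.45 (SE 0.27 and 0.23). CD80, TNFSF4 and TNFSF18, ligands made by antigen-presenting cells, had 0 reads.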

How the data were processed

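The deposited table held whole-number read counts per gene symbol in 12 libraries, 3 in each group. Although its name says normalised, the totals differed between libraries, so the authors' values were used as counts. Per the submitters' processing notes Bowtie and mm9 were named; no source used here gives the counting rule or annotation, and 16.4% to 31.4% of reads lay in no gene or were ambiguous and were left out. The authors' deposited table of comparisons gave log2 fold changes and p-values, copied without change. The kit was stranded per the labels.

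From the counts, the 7465 of 26485 genes that reached 10 counts in 3 or more libraries entered edgeR 4.0.16 (R 4.3.3): TMM scaling, 1 fit of 4 group means, quasi-likelihood tests, Benjamini-Hochberg adjustment over all tested genes and a threshold of 0.05. DESeq2 1.42.0 was an alternative. Intervals are 95%. The step was tested on simulated data. The other alternatives changed scaling, filter, the groups in the fit, the replicate block and the libraries kept. Ignoring case, 6849 of the tested symbols are mouse symbols, and 28 symbols in the table had become dates.

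Members and lists were chosen with earlier results of these data known. All 10 members are named in every comparison or by their reads. Other genes named are among the 3 of smallest p per list and comparison, the 3 nearest in pattern to the 2 tested members of most reads, listed genes with 0 reads, or cell type markers.

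Replicate numbers were checked for pairing by the correlation of deviations from group means. Heavy and input libraries of one number correlated at 0.67, 0.14 and 0.31 in OA, all over 0.1 and so taken as pairing, though unlike numbers reached 0.23 there, and at 0.10, 0.02 and 0.05 in 4E, which was not. Across arms the correlations were 0.11, 0.06 and 0.04 in input and 0.28, 0.02 and 0.15 in heavy. Summed B cell markers rose with the replicate number in each group. They were 40.9, 65.4 and 123 CPM in 4E input and 39.3, 72.5 and 87.9 CPM in OA input. In heavy they were 40.7, 95.5 and 125 CPM in 4E and 39.2, 73.9 and 111 CPM in OA. What libraries of one number share was not tested, and the main fit held no replicate block. No 2 libraries were alike beyond a Spearman correlation of 0.962.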

Additional observations from a re-analysis of the deposited data

How the results depend on the processing

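Input libraries other than OA replicate 1 held 234469 to 324535 reads outside small noncoding RNA, which limits the precision of the input values. Members called stayed at 0 in every comparison under each alternative run except no composition scaling, which gave 4 in heavy minus input of 4E and 2 of OA. That setting gave 1 gene called in input, 1 in heavy, 6016 in heavy minus input of 4E and 3007 of OA. Member medians under it were -1.05 in input, 0.17 for the interaction, 1.41 for heavy minus input in 4E and 1.25 in OA. Single members then turned sign: in 4E minus OA, FOXP3 (-0.31), IL2RB (-0.59) and NRP1 (-0.90) in input and FOXP3 (-0.14) in heavy; in the interaction, FOXP3 (0.17), IKZF2 (0.50), IL2RB (0.18) and NRP1 (0.24). In heavy minus input of 4E they were FOXP3 (1.25), CTLA4 (1.22), IKZF2 (1.57), IKZF4 (1.37), IL2RB (1.46) and NRP1 (1.83), and in OA FOXP3 (1.08) and IKZF2 (1.08).

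Genes called with no filter were 113 in input, 50 in heavy, 4 for the interaction and 80 in heavy minus input of OA. With 50 counts in 3 libraries, which left IKZF4 untested, 43 genes passed in heavy minus input of 4E and 32 of OA, and without small noncoding RNA genes 8 and 5. DESeq2 called 3 genes in input and 1 in heavy, and a fit of the groups compared 12 in heavy minus input of OA. With the replicate block 71 genes passed in input, 27 in heavy, 10 for the interaction, 109 in heavy minus input of 4E and 90 of OA. In input and heavy the block was the replicate number across both arms. Libraries of one number correlated across arms at 0.11, 0.06 and 0.04 in input and 0.28, 0.02 and 0.15 in heavy. As these were not all over 0.1, they did not meet the rule for pairing. In the other comparisons the block was the replicate number within each arm, and only the OA arm met that rule. Adjusted p in heavy over the alternatives ran from 0.0812 to 1 for CTLA4, from 0.146 to 1 for IKZF4 and from 0.246 to 1 for IKZF2. The lowest of CTLA4 and IKZF4 came with the block across arms. FOXP3 in heavy was -0.0073 with DESeq2 size factors, -0.0073 by DESeq2 and -0.044 at 50 counts. The cause was not tested.

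Without OA replicate 1 in both fractions 26 genes passed in input and 9 in heavy, the member median was 0.27 in input and -0.31 in heavy, CTLA4 in input was 0.22 and IKZF4 in heavy minus input of OA -0.20. Leaving out 1 library at a time, genes called ranged from 0 to 14 in input and 0 to 4 in heavy, and member medians from -0.30 to 0.27 in input and from -0.20 to 0.17 in heavy minus input of OA. Members that turned sign ranged, in 4E minus OA, from -0.45 to 0.22 for CTLA4 and -0.24 to 0.91 for NRP1 in input, and from -0.16 to 0.21 for FOXP3 in heavy. IKZF2 ranged from -0.45 to 0.051 in the interaction and NRP1 from -0.35 to 0.040 in heavy minus input of 4E. In heavy minus input of OA the ranges were -0.34 to 0.018 for FOXP3, -0.13 to 0.58 for CTLA4, -0.41 to 0.086 for IKZF2, -0.28 to 0.43 for IKZF4 and -0.15 to 0.22 for IL2RB.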
